A study of Mus musculus with 4 samples.

Results

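Integrins are the receptors by which osteoblasts (OBs), the cells that form bone, hold on to the extracellular matrix (ECM). The transcripts of 8 integrin subunits that bind matrix proteins were examined on a qPCR array whose 84 wells each read a single gene related to the ECM or to adhesion. The 8 genes were chosen by this role and not by their values, though with earlier results of these data known: *Itga2*, *Itga3*, *Itga4*, *Itga5*, *Itgav*, *Itgb1*, *Itgb3* and *Itgb4*. Wells are given by position alone in the Ct table. *Itga2* (well C07) and the laminin gene *Lama1* (D08) are among the genes named in the study's text, and they enclose the remaining subunits in the alphabetical layout of the array. The names of the other 7 subunits (wells C08, C09, C10, D02, D04, D06 and D07) rest on this layout and were not checked by sequence.

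Long-bone OBs came from male and female mice of 4 days with floxed *Vegf* alleles, and both sexes were cultured apart. Adenovirus carrying Cre-recombinase and GFP gave the *Vegf*-deficient cultures (OBVEGFKO), and adenovirus carrying GFP without Cre gave the controls (WT), which therefore hold the floxed alleles and a virus too. Transduction lasted 6 days, followed by 24 h in medium with 1% serum, and 500 ng RNA was reverse transcribed. Cre was delivered by the virus to any cell it entered, without an osteoblast promoter. No culture held Cre without floxed alleles, so loss of *Vegf* and the presence of Cre cannot be told apart in what is called the effect of deletion below. The share of cells transduced and *Vegf* mRNA were not analysed here, and the number of mice behind a culture was not given in the sources used here. Each sex gave 1 WT and 1 OBVEGFKO culture, 4 in all, so a difference between single cultures carries no estimate of error and no test was made of it. In such bulk RNA, fewer cells of a type and less RNA per cell cannot be told apart.

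Each integrin is a pair of an α and a β subunit, and the α subunit largely sets which matrix protein is bound. β1 is the most widely shared partner. With it, α2 forms a receptor for collagen, α3 for laminins, α5 for fibronectin, and α4 for fibronectin and a vascular adhesion molecule. αv pairs with several β chains, among them β3, and binds proteins with an arginine-glycine-aspartate motif such as vitronectin and osteopontin. β4 pairs with α6, which was not analysed here, and anchors epithelial cells to laminin. In bone, β1 integrins link OBs to collagen and fibronectin, and αvβ3 is best known from osteoclasts, the cells that resorb bone.

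The readout of a well is its Ct, the number of PCR cycles needed to reach a set fluorescence, and 1 cycle fewer means 2-fold more template. All 8 subunits were under the limit of 35 cycles in every culture, as were 76 of the 84 wells. *Col1a1*, *Sparc* and *Spp1*, abundant matrix genes of OBs, ranked 3rd, 2nd and 4th of the panel from the lowest mean Ct. OB markers such as *Runx2* and *Bglap* were not analysed here. The Ct of the whole panel differed between cultures, with medians of 25.96 and 21.92 in female WT and OBVEGFKO OBs and of 25.53 and 22.56 in male WT and OBVEGFKO OBs. Values of the 4 cultures are given in this order throughout. Each value below is therefore given relative to a reference, the mean Ct of 51 other wells that were under 30 cycles in all 4 cultures. This reference stood at 23.66, 20.35, 23.31 and 20.47 cycles. A level is the reference Ct minus the Ct of the gene, in log2 units, and tells how a gene stood within the panel of its own culture. A shift of the whole panel is removed by it. Housekeeping genes were not used here, and from these wells alone such a shift cannot be told apart from a difference in cDNA input. Another reference adds 1 constant to all wells of a comparison, so that the order of the genes is kept and the sign of a value can change.

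The 8 subunits covered a wide range of levels. *Itgb1* was the most abundant, *Itga5* and *Itgav* were intermediate, and the other 5 lay far below. *Itgb1*, the shared β chain, had Ct values of 21.24, 17.77, 20.85 and 17.78. Its level was 2.42, 2.58, 2.46 and 2.69, a range of 0.26, the narrowest of the 8 genes. By mean Ct, *Itgb1* ranked 10th of the 84 wells from the most abundant. Such levels set 1 gene beside another through different primer pairs, whose efficiencies were not measured here.

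Among the α chains, the fibronectin receptor subunit *Itga5* had Ct values of 23.36, 20.21, 22.91 and 19.85. Its level was 0.30, 0.14, 0.40 and 0.62, close to the reference in all cultures. *Itgav*, the α chain of the vitronectin receptors, had Ct values of 25.37, 21.81, 25.71 and 21.73. Male WT OBs were the only culture in which *Itgav* stood below −2, with levels of −1.71, −1.46, −2.40 and −1.26.

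The collagen receptor subunit *Itga2* had Ct values of 29.74, 27.45, 29.42 and 26.26, and levels of −6.08, −7.10, −6.11 and −5.79. The female OBVEGFKO culture was the low one, and the other 3 lay within 0.32 of each other. The laminin receptor subunit *Itga3* was more even, with Ct values of 30.29, 27.25, 29.59 and 27.17 and levels of −6.63, −6.90, −6.28 and −6.70. For *Itga4*, known best from leukocytes, the Ct values were 29.93, 26.91, 30.74 and 26.29. Its levels of −6.27, −6.56, −7.43 and −5.82 had the widest range of the 8 genes, 1.61, from a low in male WT to a high in male OBVEGFKO OBs.

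*Itgb3*, the partner of αv, was the scarcest subunit, with Ct values of 30.33, 28.21, 31.39 and 28.24. Its levels were −6.67, −7.86, −8.08 and −7.77, so that female WT OBs stood above the other 3 cultures, which lay close together. *Itgb4* had Ct values of 29.97, 27.05, 29.70 and 26.74 and levels of −6.31, −6.70, −6.39 and −6.27. By mean level the order was *Itgb1* (2.54), *Itga5* (0.37), *Itgav* (−1.71), *Itga2* (−6.27), *Itgb4* (−6.42), *Itga4* (−6.52), *Itga3* (−6.63) and *Itgb3* (−7.59). The steps between *Itga2*, *Itgb4*, *Itga4* and *Itga3* were smaller than the range of each of these genes over the cultures, and their order differed from culture to culture. *Itgb1*, *Itga5* and *Itgav* did not overlap with each other or with the scarce genes in any culture.

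**Figure D1:**
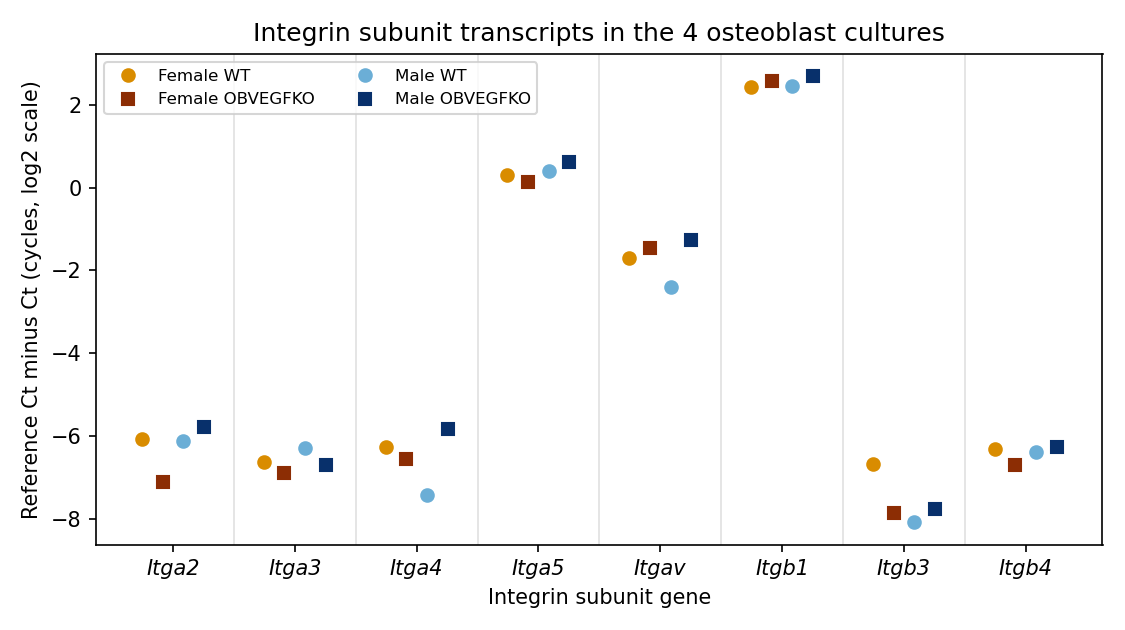
Level of each integrin subunit (reference Ct minus Ct, in cycles, a log2 scale) in WT and OBVEGFKO OBs of both sexes, 1 point per culture. *Itgb1* lay between 2.42 and 2.69, *Itga5* and *Itgav* between −2.40 and 0.62, and the other 5 genes at −5.79 or lower.

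The first question of the design was whether male and female OBs differ before *Vegf* is removed. In male versus female WT OBs, *Itgb3* was 2.67-fold lower and *Itga4* 2.24-fold lower, log2 differences of −1.42 and −1.17. They ranked 74th and 73rd of the 76 wells from the highest. *Itgav* was 1.62-fold lower, a log2 difference of −0.70, and the remaining 5 subunits lay between −0.09 and 0.34. Thus 2 of 8 subunits were at least 2-fold lower and 0 at least 2-fold higher, where 6.58% of the 76 wells were lower and 3.95% higher by that measure. Both genes are scarce, and such wells passed 2-fold more often. Of 23 other wells whose highest Ct lay above 26 and under 32, 3 were lower and 2 higher. *Itgb3*, *Itga4* and *Itgav* were also lower in male cells under every other reference tried and without normalisation, where *Itga4* was at −0.81 and *Itgb3* at −1.06. The signs of *Itga2*, *Itga5*, *Itgb1* and *Itgb4*, all within 0.10 of 0, changed with the reference, while *Itga3* was higher in male cells under each of them. The median of the 8 was −0.06 beside 0.08 for the panel (quartiles −0.20 and 0.31), and it was 0.10 with the median of the reference wells and 0.30 without normalisation.

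The same comparison was then made between the *Vegf*-deficient cultures. In male versus female OBVEGFKO OBs the collagen receptor subunit *Itga2* was 2.47-fold higher, a log2 difference of 1.30, the 4th highest of the 76 wells. *Itga4* followed at 0.73, *Itga5* at 0.47 and *Itgb4* at 0.42. *Itga3* and *Itgav* (0.19 each), *Itgb1* (0.10) and *Itgb3* (0.08) were nearly level. One subunit of 8 was at least 2-fold higher and 0 at least 2-fold lower, against 6.58% of the wells in either direction. All 8 values were above 0, as were 46 of the 76 wells, with a median of 0.31 beside 0.12 for the panel, but with *Col1a1* as the reference 6 of 8 were below 0, the median was −0.18 and *Itga2*, at 0.82, was no longer at least 2-fold higher. *Itga4* and *Itgb3*, at least 2-fold lower in male WT OBs, were not at least 2-fold lower in male OBVEGFKO OBs under any reference tried.

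The effect of *Vegf* deletion was then followed within each sex. In female OBVEGFKO versus WT OBs, *Itgb3* was 2.28-fold lower and *Itga2* 2.03-fold lower relative to the panel, log2 differences of −1.19 and −1.02. These were the lowest 2 of the 76 wells, and no other well was at least 2-fold lower. *Itga2* was only just past 2-fold, and fell short of it with the median of the reference wells (−0.93) or an efficiency of 1.9 per cycle (−0.95). The count of 2 of 8 subunits stood against 2.63% of the wells lower by that measure, and 0 of 8 against 7.89% higher. *Itgb4* was at −0.39, *Itga4* at −0.29, *Itga3* at −0.27 and *Itga5* at −0.16, while *Itgb1* and *Itgav* were at 0.16 and 0.25. The median of the 8 subunits was −0.28, and that of the panel was −0.03 (quartiles −0.32 and 0.28).

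In male OBVEGFKO versus WT OBs the subunits that stood out were others. *Itga4* was 3.05-fold higher and *Itgav* 2.20-fold higher relative to the panel, log2 differences of 1.61 and 1.14, the 2nd and 5th highest of the 76 wells. *Itga2* (0.32), *Itgb3* (0.31), *Itgb1* (0.23), *Itga5* (0.22) and *Itgb4* (0.12) were slightly above 0, and *Itga3* was below it at −0.42. By the 2-fold measure 2 of 8 subunits were higher and 0 lower, against 6.58% and 1.32% of the wells. The median of the 8 was 0.27, and that of the panel, whose quartiles were −0.27 and 0.31, was 0.00 to 2 decimals. With *Col1a1* as the reference the median of the 8 turned to −0.16. *Itga4* was then at 1.18, and *Itgav*, at 0.71, was no longer at least 2-fold higher, nor was it with *Itgb1* as the reference (0.91).

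These values do not say that *Itga2* or *Itgb3* transcripts were fewer per culture after deletion in female cells. Before normalisation every subunit had a lower Ct in the OBVEGFKO culture of its sex. The unnormalised log2 differences ran from 2.12 for *Itgb3* to 3.56 for *Itgav* in female cells, and from 2.42 for *Itga3* to 4.45 for *Itga4* in male cells. The unnormalised panel median was 3.28 in female and 2.84 in male cells, and 0.44 and 0.01 in male versus female WT and OBVEGFKO cells. The signs of *Itga2* and *Itgb3* in female cells were thus reversed without normalisation, at 2.29 and 2.12. The signed order of the genes and the differences between them do not depend on the reference: *Itgb3* and *Itga2* had the lowest values of the 8 subunits in female cells, and *Itga4* and *Itgav* the highest in male cells.

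**Figure D2:**
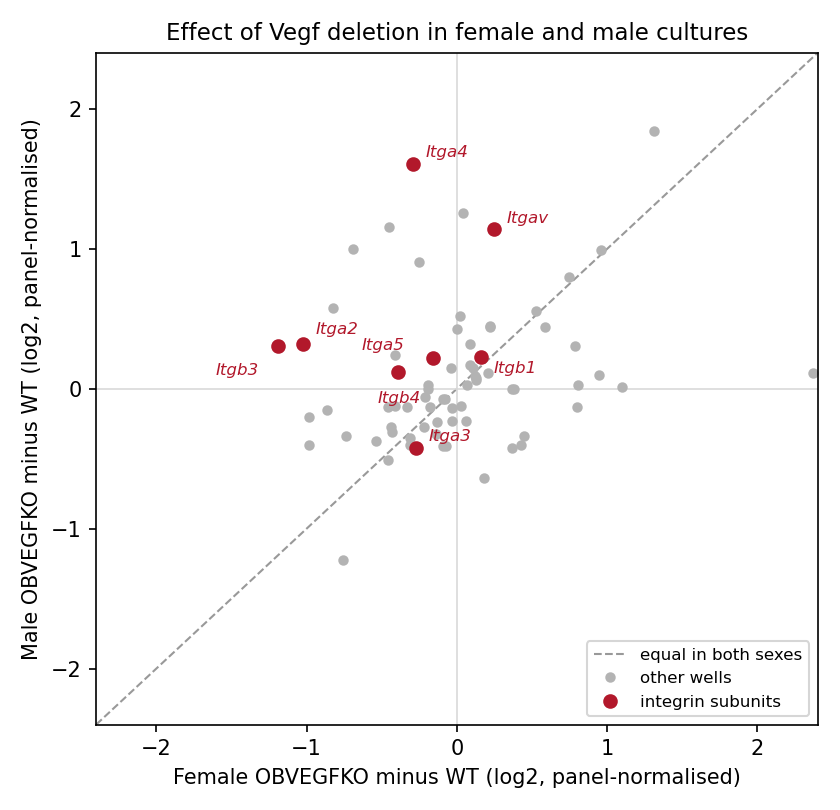
Log2 difference of OBVEGFKO minus WT relative to the panel in female (horizontal axis) and male (vertical axis) OBs, 1 point per well; 73 of the 76 wells under the limit are drawn and 3 lie outside the axes. *Itga4* (−0.29 and 1.61), *Itgb3* (−1.19 and 0.31) and *Itga2* (−1.02 and 0.32) lie farthest above the dashed line of equal effects among the 8 integrin subunits; with no normalisation all 8 subunits are above 0 on both axes.

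The difference between the sexes in the effect of deletion was taken as the male minus the female log2 effect. It was 1.9 for *Itga4*, the highest of the 76 wells, 1.5 for *Itgb3*, ranked 4th, and 1.34 for *Itga2*, ranked 6th. *Itgav* was at 0.89, *Itgb4* at 0.51, *Itga5* at 0.38, *Itgb1* at 0.07 and *Itga3* at −0.15. A total of 3 of 8 subunits were thus at least 2-fold higher and 0 at least 2-fold lower, against 10.5% and 6.58% of the wells. The median of the 8 was 0.70 and that of the panel 0.03, with quartiles of −0.22 and 0.34. The gap between both medians, 0.67, is the same under any reference, whereas the median of the 8 itself was 0.27 with *Col1a1* as the reference and 0.23 without normalisation. *Itga2* was no longer at least 2-fold higher in either case (0.91 and 0.87), which left 2 of 8. *Itgav* joined at 1.26, for 4 of 8, with all other wells under 35 cycles as the reference, but not (0.92) once the 2 widest wells of the panel, E01 and G06, were left out of it. With 1 culture in each cell of the design, this difference between the sexes could not be tested.

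The 5 comparisons share their cultures, and 1 culture could set several of them. The male WT value of *Itga4* enters the sex difference in WT OBs (−1.17), the male effect (1.61) and the difference of effects (1.9). For *Itgb3* it is the female WT culture that stands apart, in the WT sex difference (−1.42), the female effect (−1.19) and the difference of effects (1.5). For *Itga2* the female OBVEGFKO culture does, in the sex difference after deletion (1.30), the female effect (−1.02) and the difference of effects (1.34). For each of these genes, the 3 values rest on 1 culture in common and are not separate findings.

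All 3 of these genes are scarce, with Ct values up to 31.39, and scarce wells varied more. Among other wells whose highest Ct lay above 26 and under 32, as for 5 of the subunits, the difference of effects had a robust SD (scaled median absolute deviation) of 0.80 over 23 wells, and 3 were at least 2-fold higher and 3 lower. *Itga4* lay more than 2 of these SDs above 0, and *Itgb3* and *Itga2* between 1 and 2. Of the same 23 wells, 2 were at least 2-fold higher and 4 lower in male versus female OBVEGFKO OBs. These counts were 3 and 0 for the female effect of deletion, and 2 and 1 for the male effect. Among 39 other wells with a highest Ct of at most 26, as for *Itgb1*, *Itga5* and *Itgav*, the robust SD was 0.27. The 0.89 of *Itgav* was more than 3 of these SDs, and 1 of the 39 wells was at least 2-fold higher and 1 lower. The spread over wells also holds true differences between genes and is no replicate error.

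An effect of deletion common to both sexes was tested with limma over the 76 wells, with sex in the model, so that 2 OBVEGFKO cultures were set against 2 WT cultures. The test called 0 of 8 subunits and 0% of the 76 wells at an adjusted p under 0.05, and 0 subunits and 5 wells had an unadjusted p under 0.05. *Itgav* had the largest mean effect, 0.69 ± 0.318 (log2 ± SE, limma adjusted p = 0.567), above 0 in both sexes, though at −0.16 in female cells with the wells under 35 cycles as the reference (0.17 without E01 and G06). *Itga4* was at 0.66 ± 0.633 (limma adjusted p = 0.638), with the SE almost as large as the effect since the sexes had opposite signs. *Itga3* was the 1 subunit below 0 in both sexes, at −0.35 ± 0.139 (limma adjusted p = 0.534). The shared chain *Itgb1* was at 0.19 ± 0.132 (limma adjusted p = 0.588). The other 4 lay between −0.44 and 0.03. Without normalisation the same limma fit called all 8 subunits and 75 of the 76 wells for deletion, a count that holds the shift of the whole panel.

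A sex difference common to WT and OBVEGFKO OBs was read from the same fit. It called 0 of 8 subunits and 0% of the wells, and 0 subunits and 8 wells had an unadjusted p under 0.05. *Itga2* (0.63 ± 0.456, limma adjusted p = 0.535) and *Itgb3* (−0.67 ± 0.506, limma adjusted p = 0.543) were farthest from 0. *Itga3*, higher in male cells with and without *Vegf*, was at 0.27 ± 0.139 (limma adjusted p = 0.510). With *Col1a1* as the reference, however, *Itga3* was at −0.29 in male versus female OBVEGFKO OBs. With 2 cultures in each arm, the residual of this fit is the difference in effect between the sexes, so genes whose effects differ most by sex carry the largest SE.

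Because an integrin works as a pair, each α chain was also set against its β partner within a culture, where the reference cancels. The difference is the Ct of β minus the Ct of α, in log2 units. Transcripts of *Itga5* came nearest to those of *Itgb1*, at −2.12, −2.44, −2.06 and −2.07, a range of 0.38 over the cultures. With *Vegf* deletion this ratio of the fibronectin receptor differed by −0.32 in female and −0.01 in male cells. For the collagen receptor, *Itga2* relative to *Itgb1* was −8.50, −9.68, −8.57 and −8.48. The female OBVEGFKO culture was again the 1 that stood apart, 2.27-fold below female WT, while the male cultures differed by 0.09.

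*Itga3* relative to *Itgb1* was lower after deletion in both sexes, by a log2 difference of −0.43 in female and −0.65 in male cells. *Itga4* relative to *Itgb1* was −8.69, −9.14, −9.89 and −8.51, with male WT the lowest culture. The effect of deletion on this ratio was −0.45 in female cells and 1.38, or 2.60-fold, in male cells. *Itgav* relative to *Itgb1* was −4.13, −4.04, −4.86 and −3.95, and the male effect was 0.91, or 1.88-fold, beside 0.09 in female cells.

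The vitronectin receptor pair had the same direction in both sexes. *Itgav* exceeded *Itgb3* by 4.96, 6.40, 5.68 and 6.51. The ratio of *Itgav* to *Itgb3* was 2.71-fold higher after deletion in female cells and 1.78-fold higher in male cells, log2 differences of 1.44 and 0.83. The numerator and the denominator differed in their shares. In female cells *Itgb3* was lower relative to the panel (−1.19) with *Itgav* at 0.25, and in male cells *Itgav* was higher (1.14) with *Itgb3* at 0.31.

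**Figure D3:**
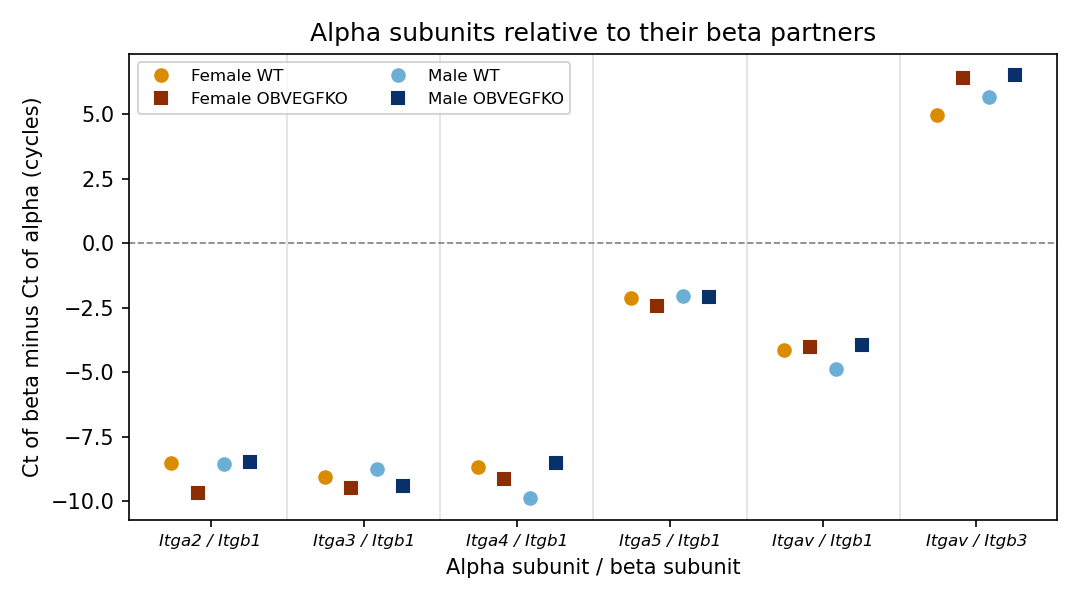
Ct of the β subunit minus Ct of the α subunit (cycles, a log2 scale) for 6 known integrin pairs in the 4 cultures, 1 point per culture; values below 0 mean that the α transcript was the scarcer. *Itga5* relative to *Itgb1* stayed between −2.44 and −2.06, and *Itgav* relative to *Itgb3* was higher in both OBVEGFKO cultures (6.40 and 6.51) than in WT (4.96 and 5.68).

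Matrix ligands of these receptors were read on the same array for 4 genes: *Col1a1* (collagen), *Spp1* (osteopontin), *Thbs1* (thrombospondin) and *Lama1* (laminin). Relative to the panel, 0 of 4 differed by at least 2-fold after deletion in either sex, where few wells did (7.89% higher and 2.63% lower in female cells, 6.58% and 1.32% in male cells), so that this count says little about the ligands. *Col1a1*, a ligand of α2β1, was at 0.00 in female and 0.43 in male cells, and *Spp1*, a ligand of αv integrins, at −0.18 and −0.13. *Thbs1* was at −0.04 and 0.15. *Lama1* was scarce, with Ct values of 33.36, 30.74, 33.31 and 29.47, and was at −0.69 in female cells and at 1.00 in male cells, just short of 2-fold before rounding. Its difference of effects, 1.69, was the 2nd highest of the 76 wells, directly below that of *Itga4*.

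Primary OB cultures can hold blood-derived cells, and 4 leukocyte integrin genes of the array were read here. A further integrin gene named in the study's text, *Itgae*, was not analysed, so these 4 do not stand for every such gene. *Itgal*, *Itgam*, *Itgax* and *Itgb2* were all under the limit in every culture. Their summed level, relative to the reference and on a linear scale, was 1.31, 2.08, 1.19 and 2.01, higher in the OBVEGFKO culture of each sex. *Itgb2*, the leukocyte β chain, was the most abundant of them, with Ct values of 23.50, 19.44, 23.34 and 19.70. Its mean level was 0.45, against −2.26 for *Itgam*, −7.25 for *Itgal* and −7.33 for *Itgax*, so that the sum mostly holds *Itgb2*. For *Itgb2* itself the values were as follows. Its log2 difference with deletion was 0.75 in female and 0.80 in male cells, and that of *Itgax* was 0.96 and 0.99. *Itgam* was at 0.02 in female and 0.52 in male cells. *Itgal* was at 0.04 in female and 1.26 in male cells, near *Itga4* and *Itgav* in the male effect. In male versus female WT OBs, however, *Itgal* was at 0.14, where *Itga4* and *Itgav* were at −1.17 and −0.70. The part of such cells in the values of *Itga4*, *Itgav* and *Itgb3* was not tested.

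The OB matrix genes *Col1a1*, *Sparc* and *Spp1* were summed in the same way, at 126.7, 91.5, 121.8 and 122.9. The sum was lowest in female OBVEGFKO OBs, the culture in which *Itga2* was lowest too. *Sparc*, the most abundant of the 3, had a log2 difference with deletion of −0.86 in female and −0.15 in male cells, and ranked 72nd of the 76 wells from the highest in female cells. *Col1a1* (−0.0008) and *Spp1* (−0.18) were nearer to 0 in female cells, so that the lower sum was mostly that of *Sparc*. The part of this *Sparc* difference in the value of *Itga2* was not tested.

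The wells most like each subunit were found by centring every well on its own mean and taking the largest difference over the 4 cultures, among 75 other wells. *Itga4* and *Itgav* were nearest to each other, within 0.29 in all cultures. For both, *Itgb2* came next, within 0.54 of *Itga4* and 0.29 of *Itgav*. The well nearest to *Itga5* was that of *Col1a1*, within 0.11. For *Itgb4* it was the unnamed well B03 (0.14), with *Spp1* next (0.16). The well nearest to *Itgb1* was C06 (0.06) and that nearest to *Itga3* was B01 (0.06), both unnamed here. The nearest well was D09 (0.37) for *Itga2* and G01 (0.29) for *Itgb3*.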

How the data were processed

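Ct values of 84 wells in 4 cultures (RT² Profiler array, SYBR Green) were deposited by the authors without normalisation, in cycles to 2 decimals. A further deposited table holds the authors' ratios (linear fold changes after normalisation to housekeeping genes) for 4 comparisons. These are their own comparisons and were not used, so the housekeeping correction, which would add a constant to each comparison, is not part of the values here. All 4 Ct columns were analysed. The members and lists were chosen with earlier results of these data known. All 8 symbols are in the RefSeq gene table of GRCm38.p6, used for names only. The 4 ligand wells were kept because differences between wells, which need no reference, fitted the study's text.

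The reference was the mean Ct of 51 wells other than the 8 under 30 cycles in all cultures, at an efficiency of 2 per cycle. At least 2-fold was the threshold for single cultures. limma 3.58.1 (R 4.3.3) was fitted on the 76 wells under 35, on sex and *Vegf* status, with Benjamini-Hochberg adjustment. Scripts were tested on simulated data. Other references, none, an efficiency of 1.9, a 1.5-fold threshold and leaving out each culture were tried. Python 3.11.15, numpy 2.4.6, pandas 2.3.3 and matplotlib 3.10.9 were used.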

Additional observations from a re-analysis of the deposited data

Results flagged for a closer look

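The effect of *Vegf* deletion relative to the panel had opposite signs in female and male OBs for 5 of the 8 integrin subunits and for 28.9% of the 76 wells, and this difference was not tested for any of them, since each sex gave 1 pair of cultures. The male minus female log2 effect was 1.9 for *Itga4* (−0.29 in female and 1.61 in male cells). It was 1.5 for *Itgb3* (−1.19 and 0.31) and 1.34 for *Itga2* (−1.02 and 0.32). For *Itgb4* it was 0.51 and for *Itga5* 0.38, with both effects within 0.39 of 0.

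Opposite signs were also found for the ligand genes *Lama1* and *Thbs1* and for 2 subunit pairs, again not tested. By sign alone *Col1a1* belongs with them, but its female effect was 0 to 2 decimals (−0.0008, beside 0.43 in male cells). *Lama1* differed by 1.69 between the sexes, and *Thbs1*, by 0.19, had a female effect close to 0. *Itga2* relative to *Itgb1* differed by 1.27 and *Itga4* relative to *Itgb1* by 1.83, and these values of the pairs need no reference. The signs depend on the reference, and housekeeping genes were not used for it here. The count of 5 was 7 with the wells under 35 cycles (42.1% of wells), 3 with *Itgb1* (35.5%), 2 with *Col1a1* (40.8%) and 0 without normalisation. With *Col1a1* as the reference *Itga2* (−1.02 and −0.11), *Itga5* (−0.16 and −0.21), *Itgb3* (−1.19 and −0.12) and *Itgb4* (−0.39 and −0.31) were below 0 in both sexes, and *Itga4* (−0.29 and 1.18) kept opposite signs. Without normalisation all 8 subunits had positive effects in both sexes.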

How the results depend on the processing

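Values depended on the reference, and single cultures give no replicate error. Of 40 values of single subunits, all 40 moved by less than the spread of the reference wells with the median of the reference wells, with an efficiency of 1.9, or with *Itgb1* as the reference, which was chosen after seeing the data. A change of reference moves all subunits of a comparison by the same constant, so the 40 values are not separate checks. An efficiency of 1.9 can only shrink values a little, and *Itgb1* had the narrowest range of the subunits. The counts for these 2 settings therefore say nothing of stability. With the wells under 35 cycles as the reference 16 of 40 moved, and with *Col1a1* 24. Without normalisation 30 moved and a further 2, at least 2-fold at first, reversed.

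Without normalisation, the female effects of *Itga2* and *Itgb3* reversed to 2.29 and 2.12, all 8 subunits were at least 2-fold higher after deletion in female and male cells and 0 lower, and their medians were 3.03 and 3.11. Limma then called 8 of 8 for deletion. The median was 0.30 between WT cultures, with 1 subunit at least 2-fold lower, and 0.23 for the difference of effects. These changes follow from the shift of the panel. With the wells under 35 the median of the subunits was −0.69 for the female effect and 1.07 for the difference of effects. These rested on wells E01 (Ct 31.97 in female WT and 13.67 in female OBVEGFKO OBs) and G06 (30.02 and 19.30): without them, an alternative chosen after seeing the data, the medians were −0.36 and 0.73, and 40 of 40 single values moved by less than that spread. With *Col1a1* the medians were −0.18 between OBVEGFKO cultures (0 subunits at least 2-fold higher), −0.16 for the male effect (1 higher) and 0.27 for the difference of effects. With the median reference and with an efficiency of 1.9, 1 subunit in place of 2 was at least 2-fold lower in female OBVEGFKO OBs. With *Itgb1* as the reference, 1 was higher in male OBVEGFKO OBs. A 1.5-fold threshold gave 2 higher between OBVEGFKO cultures, 3 lower between WT cultures and 4 higher for the difference of effects. A reference adds a constant to a comparison, an efficiency of 1.9 shrinks every value, and a lower threshold admits smaller ones. Limma called 0 of 8 subunits with all 84 wells, with the wells under 35 as the reference, with the other factor left out, and with a robust variance prior, also chosen after seeing the data. Leaving out a culture left 1 culture in an arm, assumed to vary like the others, and the other factor had to be dropped. Those fits called 0 subunits and 0 to 1 wells, and say nothing of stability.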
